A study of Mus musculus with 15 samples.

Results

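The genes described here encode the proteins of the mitochondrial ribosome. They were taken as every gene of the deposited count table whose symbol is Mrpl or Mrps followed by a number and at most 1 letter, which gave 76 of 16154 genes, 48 with the symbol Mrpl and 28 with the symbol Mrps. Haematopoietic stem cells (HSC) of female C57BL/6 mice by the labels were sorted from bone marrow as Lin- Sca-1+ cKit+ CD150+ CD48- cells, at 20000 to 25000 cells per mouse. The 3 groups of 5 mice were young mice of 6 to 12 weeks, aged mice of 20 to 24 months, and aged mice of the same age range that drank nicotinamide riboside (NR, written Nicotamide Riboside in the labels) at 3 mg/ml for 2 months. NR is a precursor of the cofactor NAD. No group of young mice given NR was analysed here, so NR can be compared only within aged HSC and against untreated young HSC.

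Mitochondria keep a small genome of their own and translate its mRNAs, which encode core subunits of the respiratory chain and of ATP synthase, on a dedicated ribosome. Its ribosomal RNAs come from the mitochondrial genome, whereas all of its proteins are encoded in the nucleus, made in the cytosol and imported. The Mrpl genes encode proteins of the large subunit, which holds the catalytic centre and the tunnel through which the new peptide leaves, and the Mrps genes encode mainly proteins of the small subunit, which reads the mRNA. Some of these proteins have a counterpart in bacterial ribosomes and others arose in mitochondria. HSC are known for a low reliance on respiration while quiescent, and for changes in their mitochondria with age.

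All 76 genes had a single match among protein-coding genes of GENCODE M21 (GRCm38) and lay on 17 chromosomes, with 11 of them on chromosome 11. The exon length of a gene ranged from 607 to 8631 bases (median 2542). Exon bases were shared with another gene on the same strand for 7 members and on the opposite strand for 26, and the strand setting of the authors' counting is not given in the sources used here. More than 25% of the exon bases were shared in 5 members, Mrpl19, Mrpl24, Mrpl43, Mrps25 and Mrps34, so their counts are the least certain to come from 1 gene. Mrpl53 and Mrps18b, also proteins of the mitochondrial ribosome, were not analysed here.

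Promoters are shown for the 3 members whose aged HSC differed from young HSC with the smallest p, Mrpl52, Mrps5 and Mrps24. The windows run from 250 bases before to 50 bases after the RefSeq start on GRCm38.p6, 5′ to 3′ on the strand of the gene, and capitals mark exact matches on either strand to the letters CCGGAAG (ETS factors, such as GABPA), AAGATGGC (YY1), GCGCATGC (core of NRF1), GGGCGG (SP1) or CACGTG (E-box). The Mrpl52 window lies at chr14:54426659-54426958 on the plus strand, the Mrps5 window at chr2:127587176-127587475 on the plus strand and the Mrps24 window at chr11:5707652-5707951 on the minus strand.
Mrpl52: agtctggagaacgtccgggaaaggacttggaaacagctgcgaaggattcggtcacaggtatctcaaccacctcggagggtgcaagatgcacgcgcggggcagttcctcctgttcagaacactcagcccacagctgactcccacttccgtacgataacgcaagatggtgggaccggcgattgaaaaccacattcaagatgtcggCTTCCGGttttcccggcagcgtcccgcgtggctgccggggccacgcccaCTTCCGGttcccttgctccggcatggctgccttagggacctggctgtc
Mrps5: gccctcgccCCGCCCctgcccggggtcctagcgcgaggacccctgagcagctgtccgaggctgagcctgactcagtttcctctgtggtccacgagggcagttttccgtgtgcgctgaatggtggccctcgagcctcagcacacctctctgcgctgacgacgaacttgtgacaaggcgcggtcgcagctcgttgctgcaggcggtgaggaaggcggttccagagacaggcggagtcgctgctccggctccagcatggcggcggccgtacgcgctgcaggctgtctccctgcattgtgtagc
Mrps24: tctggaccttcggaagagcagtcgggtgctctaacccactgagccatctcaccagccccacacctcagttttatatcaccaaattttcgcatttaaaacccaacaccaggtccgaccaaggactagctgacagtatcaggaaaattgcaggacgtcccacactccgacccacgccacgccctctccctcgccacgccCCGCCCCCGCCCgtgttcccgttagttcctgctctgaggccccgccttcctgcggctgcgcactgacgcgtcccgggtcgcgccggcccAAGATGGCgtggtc

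The Mrpl52 window held 2 ETS matches, beginning 47 bases before the start and at base 3 of the transcript. The Mrps5 window held 1 SP1 match, far upstream at 241 bases before the start. The Mrps24 window held 2 SP1 matches that abut each other, at 53 and 47 bases before the start, and a YY1 match at base 37 of the transcript, whose letters include an ATG. No motif was thus shared by all 3 promoters, while SP1 matches stood in those of Mrps5 and Mrps24.

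RefSeq windows were matched for 67 of the 76 members (73 windows) and for 10319 of the 16154 measured genes (13194 windows). The ETS letters stood in 24 of the 73 windows (32.9%), compared with 16.7% of 13194 windows of all measured genes and 8.86% of 32851 windows of all genes. The YY1 letters stood in 12 windows (16.4%), compared with 4.21% of measured genes and 2.75% of all genes. NRF1 core letters were present in 7 windows (9.59%, against 4.98% and 2.71%). The share of windows with these 3 motifs was thus higher among the mitochondrial ribosomal protein genes than among measured genes, as a description of sequences and with no test. For the remaining letters the share of windows was close to or below that of measured genes. It was 52.1% against 60.2% for SP1, 9.59% against 9.85% for the E-box and 39.7% against 37.8% for CCAAT. Some genes have several windows, and per gene these shares were 49.3% against 66.8%, 7.46% against 11.7% and 38.8% against 43%. Per gene, ETS stood at 35.8% against 19.5%, YY1 at 17.9% against 5.16% and the NRF1 core at 10.4% against 5.86%. NRF1 and GABPA are known regulators of nuclear genes for mitochondrial proteins, and YY1 sites near the start are common in genes of the translation machinery. A match to these letters is not a bound site.

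**Figure D1:**
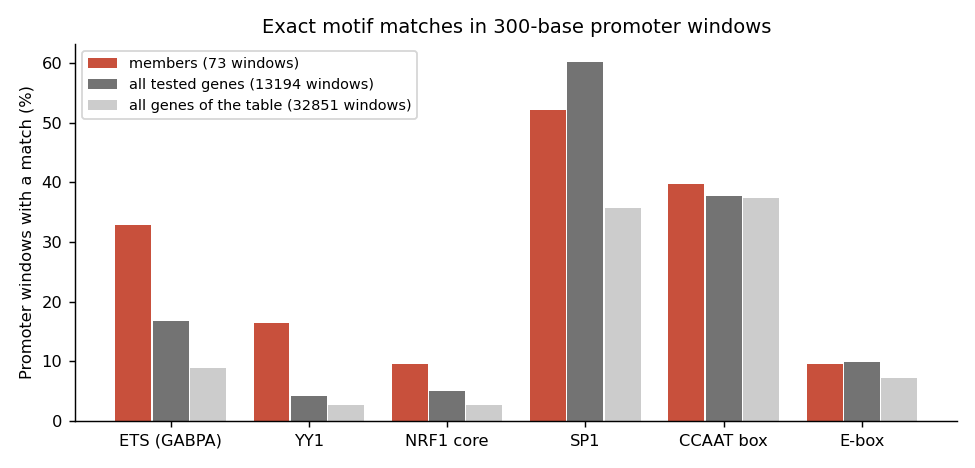
Share of 300-base promoter windows (y axis, percent, from 0) that hold an exact match to each motif (x axis), for the 73 windows of mitochondrial ribosomal protein genes (red), the 13194 windows of all measured genes (dark grey) and the 32851 windows of all genes (light grey). The red bar is well above both grey bars for ETS (32.9%), YY1 (16.4%) and the NRF1 core (9.59%), and a little above them for CCAAT (39.7%).

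Library totals lay between 764119 and 13318989 counts, with both extremes in the aged group. Totals were 2122221 to 3631395 in young and 2486399 to 3595384 in NR-treated libraries. Every aged library but replicate 2 was deeper than these, with at least 5511642 counts, so depth differed with group. Levels are given as CPM, counts scaled to a common depth, on effective library sizes computed by edgeR's TMM method, and adjusted p-values are from the quasi-likelihood test of edgeR, adjusted by Benjamini-Hochberg across the whole table, where a gene with an adjusted p under 0.05 was called. The mice are female by label. The summed level of 4 Y-linked genes was nevertheless 99.7 CPM in young replicate 1 and 105.5 CPM in young replicate 5. In the other 13 libraries it was 0.731 to 3.00 CPM. Xist, a marker of female cells, was also present in these 2 young libraries, at 420.0 and 471.7 CPM, against 293.2 to 895.0 CPM in the other 13. The source of the Y-linked counts was not tested, and counts of called members are also given without young replicates 1 and 5. All 10 markers of HSC were detected, with summed CPM of 1379 to 1749 in young, 1585 to 2005 in aged and 1477 to 1937 in NR-treated aged HSC. Of these, Ly6a (Sca-1), Slamf1 (CD150), Procr and Hoxb5 were called higher in aged than in young HSC, by log2 fold changes of 1.21, 0.84, 1.27 and 0.69, so that 2 of the markers used for sorting moved with the groups. The fitted log2 fold change was below 0 for Hlf (-0.3), Mecom (-0.19) and the sorting marker Kit (-0.16), none of which was called. Slamf1 was called lower after NR (-0.51), and Ly6a, Procr and Hoxb5 were called higher in NR-treated than in young HSC. Summed markers of mature blood cells had their lowest mean in NR-treated aged HSC. B cell and erythroid sums were on average higher in aged than in young HSC. The granulocyte sum was not, at a mean of 984.7 CPM in aged and 1082 CPM in young HSC, where replicate 3 held 4805 CPM. Between aged and young, 0 of 9 granulocyte markers were called by edgeR's quasi-likelihood test, although limma-voom called 6 higher. The summed CPM of 9 B cell markers was 106.1 to 840.6 in young, 609.3 to 4551 in aged and 88.3 to 166.4 in NR-treated aged HSC. For 8 erythroid markers the ranges were 131.8 to 2648, 3230 to 6506 and 68.7 to 558.5 CPM, and for 9 granulocyte markers 22.1 to 4805, 544.9 to 1296 and 5.11 to 111.1 CPM, with Cebpe and Cd177 at 0 in every NR-treated library. Cd177 was also at 0 in every young library but replicate 3. The part of these cells in the differences described next was not tested, and in such bulk samples fewer cells of a type and less RNA per cell cannot be told apart.

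The mitochondrial ribosomal protein genes together took 0.607 to 0.813% of all counts. Their summed level was 6893, 7552, 6508, 5919 and 6538 CPM in the 5 young libraries, 7459, 7882, 8646, 7686 and 8284 CPM in the aged libraries, and 7999, 6137, 6552, 7157 and 7503 CPM in the NR-treated libraries. On this scale the aged libraries were the highest as a group, and only young replicate 2 reached into their range from below, while the NR-treated libraries overlapped both other groups. The means were 6682 ± 598.9 CPM (SD, n = 5) in young, 7991 ± 475.1 CPM in aged and 7070 ± 741.1 CPM in NR-treated aged HSC, which places aged HSC 19.6% above young HSC and NR-treated HSC 11.5% below aged HSC (-11.5%) and 5.80% above young HSC. Both subunits followed this order, with Mrpl means of 4502 ± 397.2 and 5393 ± 321.1 CPM and Mrps means of 2181 ± 204.7 and 2599 ± 162.8 CPM in young and aged HSC. These differences depend on the TMM scaling. As a share of unscaled library totals the means were closer, at 0.685% in young, 0.753% in aged and 0.73% in NR-treated aged HSC. On that scale the highest single library was NR-treated replicate 1, at 0.813%. No test was run on these sums.

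**Figure D2:**
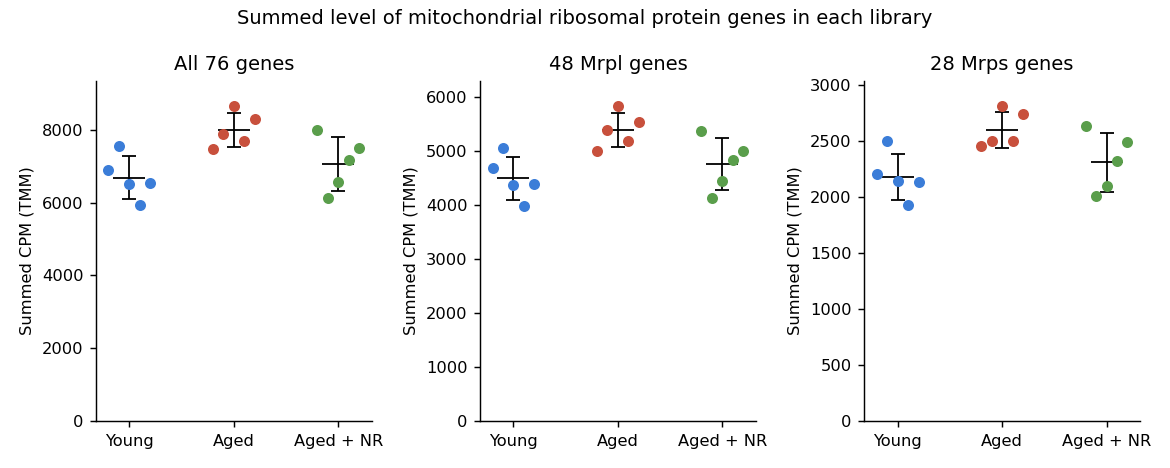
Summed level (y axis, CPM, from 0) of all 76 genes, the 48 Mrpl genes and the 28 Mrps genes in each library, by group (x axis, 5 libraries each). Points are libraries in the order of their replicate number, and bars give the mean and SD. Over all 76 genes the aged libraries sit between 7459 and 8646 CPM, and 1 young library, at 7552 CPM, lies within that range.

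Single libraries shifted most members together. In NR-treated replicate 1, 69 of the 76 members were above the mean of the other NR-treated libraries, whereas in NR-treated replicate 2 only 7 were. Among young libraries, replicate 2 had 60 members above the mean of the others and replicate 4 had 12. Among aged libraries the count ran from 15 in replicate 1 to 61 in replicate 3. Young replicate 2, with the highest summed member level of its group, had the lowest sum of B cell, granulocyte and erythroid markers among the young libraries. Young replicate 4, with the lowest member level (5919 CPM), had the highest erythroid sum. Young replicate 3, with the highest B cell and granulocyte sums, lay within the range of the others at 6508 CPM. Across groups, aged HSC had the highest means of the member level and of the B cell and erythroid sums. No link between markers and members was tested. Because members shifted together within libraries, the 76 genes are not independent measurements of a group.

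The level of a single member differed widely. Mrpl52 had the highest mean over all libraries (329.7 CPM) and was also the highest per length, at 297.3 CPM per kb of exon. Mrpl33 (233.6 CPM) and Mrpl42 (210.0 CPM) followed on the CPM scale but not per length, at 31.9 and 57.0 CPM per kb. The 3 lowest were Mrpl22 (19.2 CPM), Mrps36 (9.65 CPM) and Mrps34 (1.33 CPM, between 0 and 15 counts per library). Mrps34 was also the lowest per length, at 0.644 CPM per kb, but most of its exon bases are shared with other genes (63.4% on the opposite strand). The libraries are 3′ biased, so counts do not grow with gene length as in whole-transcript libraries and neither scale gives exact ratios between genes. Over the 75 members that averaged at least 5 CPM, the median coefficient of variation between libraries was 13.6% in young, 10.1% in aged and 14.3% in NR-treated aged HSC, compared with 7.02, 6.54 and 6.46% from counting error alone.

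The comparison of aged with young HSC asks how the genes differ with age. In aged HSC 13 of the 76 mitochondrial ribosomal protein genes were called higher and 0 lower, with changes between 1.24-fold and 1.61-fold. The 13 are Mrpl52, Mrps5, Mrps24, Mrpl17, Mrpl42, Mrps25, Mrpl40, Mrpl30, Mrpl55, Mrps17, Mrpl21, Mrpl27 and Mrpl1. They make up 17.1% of the members, while 19.3% of all genes were called in either direction with 9.68% higher and 9.63% lower. The share called in either direction was thus near that of all genes, and what differed was the direction. At an unadjusted p under 0.05, 26 members were higher and 0 lower, against 15.7% of all genes higher and 17.4% lower, and 0 members were called lower by edgeR's likelihood ratio test, DESeq2 or limma-voom. The fitted log2 fold change was above 0 for 70 of the 76 members (92.1%), compared with 47.2% of all genes. The median log2 fold change was 0.22 over the members and -0.03 over all genes, so the typical member was a little higher rather than strongly changed. Members shifted together within libraries, so these counts hold fewer independent observations than genes.

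The number of called members depended on scaling and on single libraries. With library totals in place of TMM, 3 members were called (Mrpl52, Mrps5 and Mrps24), the median of the members was 0.09 and that of all genes -0.16, so that the distance between both medians stayed at 0.25. Without young replicates 1 and 5, 6 members were called and the median was 0.24. When 1 library was left out at a time, between 4 (without aged replicate 3) and 17 (without young replicate 2) were called, with 8 without young 1 and 6 without young 4, young 5 or aged 5, and the median stayed between 0.18 and 0.27.

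**Figure D3:**
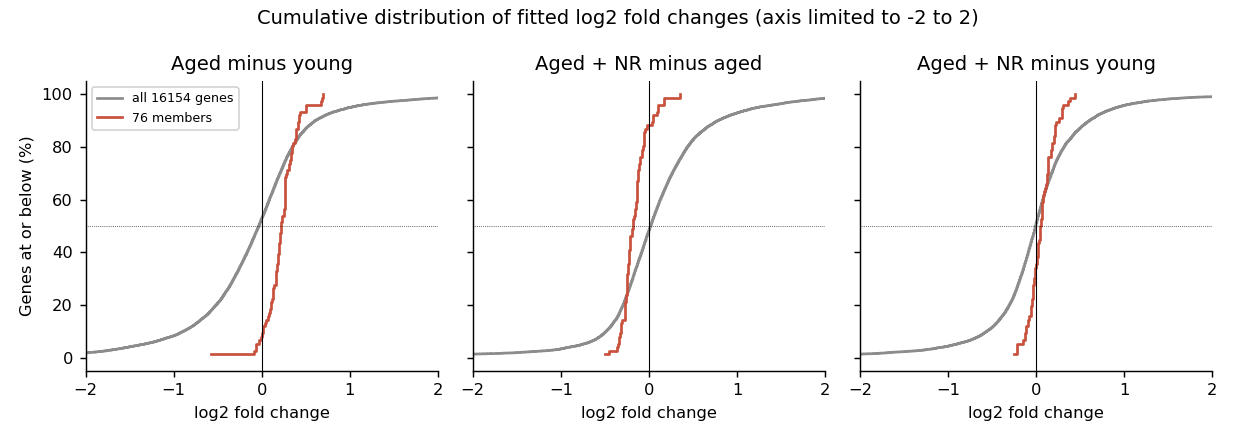
Cumulative share of genes (y axis, percent) at or below a fitted log2 fold change (x axis, limited to -2 to 2), for all 16154 genes (grey) and the 76 mitochondrial ribosomal protein genes (red), in each comparison. The red curve crosses 50% at 0.22 for aged minus young, at -0.18 for NR-treated minus aged and at 0.06 for NR-treated minus young, while the grey curve crosses at -0.03, 0.02 and 0.00.

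Mrpl52, a protein of the large subunit with no bacterial counterpart, was at 281.8, 289.8, 177.8, 251.8 and 245.2 CPM in young, 369.5, 419.1, 435.8, 369.3 and 414.1 CPM in aged, and 355.9, 336.6, 312.7, 342.3 and 344.2 CPM in NR-treated aged HSC. The 3 groups did not overlap, with every NR-treated library between the young and the aged ones. The gene (ENSMUSG00000010406.12) lies at chr14:54426909-54429756 on the plus strand. It was 1.61-fold higher in aged than in young HSC (log2 fold change 0.69 ± 0.11 SE, adjusted p = 0.000384), from 323 to 5156 counts per library. Its log2 fold change stayed between 0.59 and 0.75 when any single library was left out, and the call held each time.

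Mrps5, a counterpart of the bacterial protein S5 in the small subunit, was at 72.6, 75.6, 56.6, 82.0 and 74.2 CPM in young, 120.2, 136.2, 117.1, 96.4 and 109.5 CPM in aged, and 97.7, 84.4, 62.2, 78.2 and 97.5 CPM in NR-treated aged HSC. All aged libraries were above all young libraries, and 2 NR-treated libraries lay just above the lowest aged one. The gene (ENSMUSG00000027374.12) lies at chr2:127587222-127606829 on the plus strand. In aged HSC it was 1.59-fold higher than in young HSC (log2 fold change 0.67 ± 0.13 SE, adjusted p = 0.00186). The call held without any single library.

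Mrps24, the counterpart of bacterial S3 at the side where mRNA enters the small subunit, was at 145.6, 172.8, 152.7, 140.0 and 159.7 CPM in young, 199.4, 216.7, 239.0, 205.5 and 226.1 CPM in aged, and 206.5, 145.2, 145.8, 179.0 and 196.3 CPM in NR-treated aged HSC. Aged and young libraries did not overlap, and the NR-treated libraries spread from the young range into the aged range. The gene (ENSMUSG00000020477.10, chr11:5703983-5715680, minus strand) shares 226 exon bases with Urgcp on the same strand. It was 1.41-fold higher in aged HSC (log2 fold change 0.50 ± 0.11 SE, adjusted p = 0.00468), and the call held without any single library.

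Mrps25, a mitochondria-specific protein of the small subunit, was at 67.0, 80.8, 56.1, 69.7 and 72.5 CPM in young and 88.9, 106.4, 91.4, 96.4 and 109.9 CPM in aged HSC, again with no overlap. In NR-treated libraries it spread from 57.2 to 104.8 CPM. Aged and young HSC differed by a log2 fold change of 0.50 ± 0.15 SE (adjusted p = 0.0209), and the call was lost without aged replicate 5 (adjusted p = 0.0571). Most of its exon bases (69.8%) are shared with Nr2c2 on the opposite strand, so counts of these genes may not be fully separate. Mrps17, the counterpart of bacterial S17, was at 151.6, 178.4, 127.1, 150.9 and 146.4 CPM in young and 178.0, 172.6, 202.8, 174.0 and 202.8 CPM in aged HSC. Young replicate 2 lay within the aged range. The log2 fold change of Mrps17 was 0.31 ± 0.10 SE (adjusted p = 0.0439), and the call held in 6 of 15 fits that each left out 1 library, those without young 2, aged 2, aged 4 or NR-treated 1, 2 or 3.

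Mitochondria-specific proteins of the large subunit were also represented by Mrpl42 and by Mrpl40, a part of the central protuberance, which faces the small subunit. Mrpl42 was at 197.9, 208.2, 179.6, 164.3 and 163.2 CPM in young and 223.0, 262.1, 254.2, 237.9 and 225.1 CPM in aged HSC, with no overlap. Its log2 fold change was 0.39 ± 0.11 SE (adjusted p = 0.0204), and the call was lost without young 4, young 5 or aged 3 (adjusted p up to 0.0570). Mrpl40 was at 93.3, 94.0, 64.2, 68.6 and 82.5 CPM in young and 100.6, 133.6, 109.8, 102.4 and 100.2 CPM in aged HSC. Its groups did not overlap either, although young replicate 2 came close to aged replicate 5. Mrpl40 had a log2 fold change of 0.42 ± 0.13 SE (adjusted p = 0.0267), and the call was lost without young 3, young 4, aged 2 or aged 3 (adjusted p up to 0.0749).

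Large subunit proteins with a bacterial counterpart made up the remaining 6. Mrpl17, which lies at the exit of the peptide tunnel, was at 190.5, 170.0, 156.7, 136.0 and 149.4 CPM in young, 205.0, 208.9, 263.1, 180.1 and 226.7 CPM in aged, and 229.4, 183.6, 190.2, 218.1 and 231.7 CPM in NR-treated aged HSC. The NR-treated mean was close to the aged one, and aged replicate 4 and NR-treated replicates 2 and 3 lay within the young range. The log2 fold change between aged and young was 0.44 ± 0.12 SE (adjusted p = 0.0152), and the call was lost without aged replicate 3 (adjusted p = 0.0595). Mrpl30 was at 157.2, 197.7, 156.7, 143.7 and 154.3 CPM in young and 183.7, 182.9, 248.7, 198.4 and 220.7 CPM in aged HSC. Young replicate 2 stood apart from its group and lay within the aged range. Mrpl30 had a log2 fold change of 0.36 ± 0.11 SE (adjusted p = 0.0310), and its call was lost without young 1, 4 or 5 or aged 3 or 5 (adjusted p up to 0.110).

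Mrpl55, assigned to the central protuberance, was at 53.3, 56.7, 67.8, 53.7 and 56.6 CPM in young and 64.2, 72.7, 94.2, 67.4 and 83.7 CPM in aged HSC. Only young replicate 3 reached the aged range. Its log2 fold change was 0.41 ± 0.14 SE (adjusted p = 0.0376), and the call was lost without young 1, 2, 4 or 5 or aged 3 or 5 (adjusted p up to 0.133). Mrpl21 was at 109.5, 143.9, 73.2, 91.1 and 98.4 CPM in young and 141.8, 160.9, 132.9, 125.0 and 129.1 CPM in aged HSC, so that young replicate 2 was above 4 of the 5 aged libraries. Its log2 fold change was 0.41 ± 0.14 SE (adjusted p = 0.0445), and the call held in 3 of the 15 fits, those without young 2, aged 4 or NR-treated 2.

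Mrpl27, whose bacterial counterpart reaches into the catalytic centre, was at 81.4, 89.2, 75.4, 54.8 and 82.5 CPM in young and 90.6, 85.6, 117.5, 92.4 and 111.7 CPM in aged HSC. The groups overlapped at young replicate 2 and aged replicate 2. Its log2 fold change was 0.39 ± 0.13 SE (adjusted p = 0.0454), and the call held in 6 of the 15 fits, those without young 2, aged 1, 2 or 4 or NR-treated 1 or 2. Mrpl1, of the mobile stalk where spent tRNA leaves the ribosome, was at 54.4, 47.4, 42.7, 52.2 and 49.9 CPM in young and 62.3, 64.9, 62.0, 62.2 and 60.7 CPM in aged HSC. Its aged libraries lay close together and above all young ones. For Mrpl1 the log2 fold change was 0.33 ± 0.12 SE with an adjusted p of 0.0489, near the threshold, and the call held in 2 of the 15 fits, those without NR-treated 1 or 2.

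**Figure D4:**
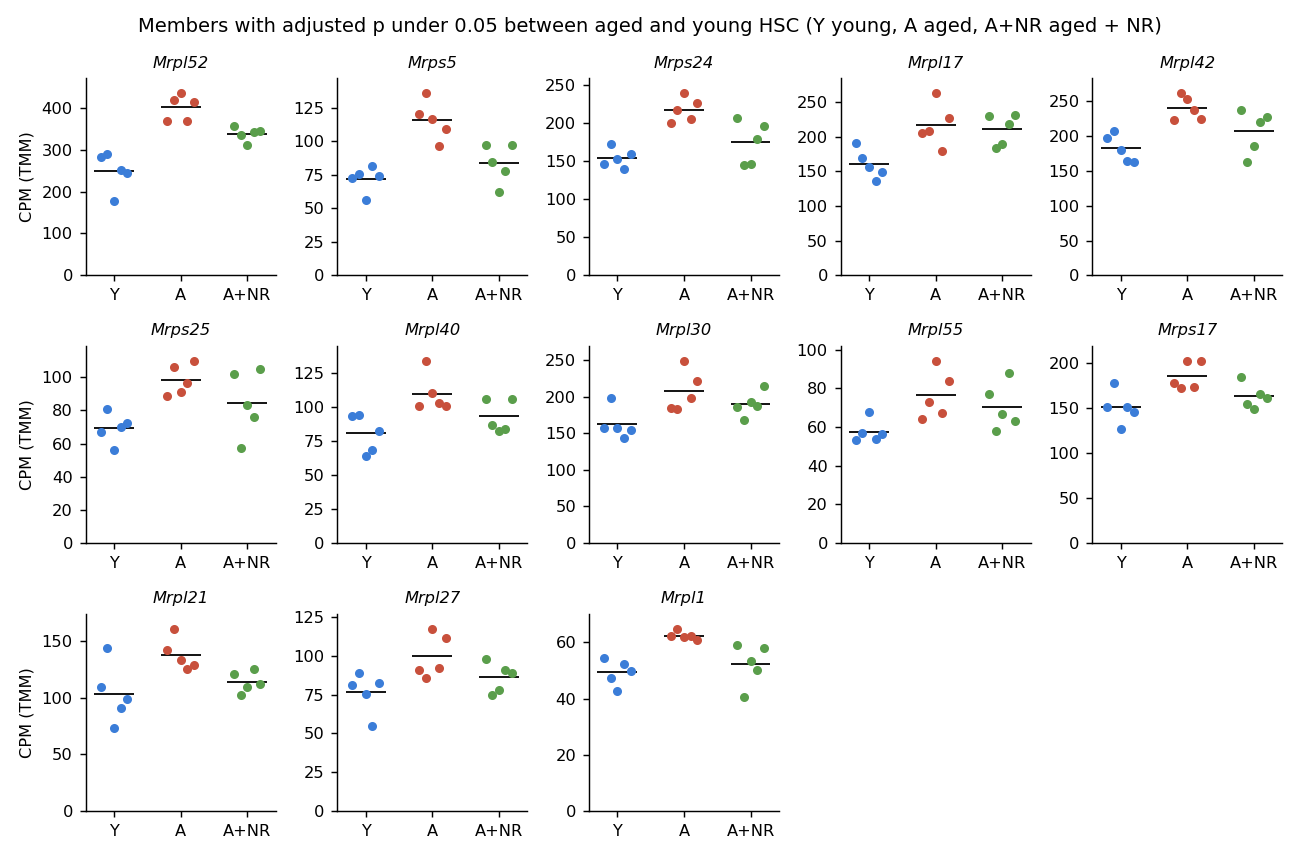
Level (y axis, CPM, from 0) of the 13 mitochondrial ribosomal protein genes called between aged and young HSC, in the 5 young (blue), 5 aged (red) and 5 NR-treated aged libraries (green). Points are libraries, lines are means, and the genes are ordered by adjusted p, from Mrpl52 (0.000384) to Mrpl1 (0.0489).

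Every aged library was above every young library for 9 of the 76 members, compared with 6.86% of all genes. These were Mrpl52, Mrps5, Mrps24, Mrps25, Mrpl42, Mrpl40 and Mrpl1 of those called, together with Mrps18c and Mrpl50, which was chosen for mention after its values were seen. No member had every aged library below every young library, against 5.53% of all genes. Mrps36 had the largest fitted change among members with at least 5 CPM, at 12.6, 4.42, 8.98, 5.08 and 6.47 CPM in young and 12.0, 9.08, 16.3, 11.0 and 10.8 CPM in aged HSC. The groups overlapped because of young replicate 1, and the gene was not called (log2 fold change 0.70 ± 0.27 SE, adjusted p = 0.0767). Without young replicates 1 and 5 it was called, with a log2 fold change of 1.0 and an adjusted p of 0.0420. Mrps36 is now counted as a component of the 2-oxoglutarate dehydrogenase complex rather than of the ribosome.

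By structure, the called members were spread over both subunits. Of 30 large subunit proteins with a bacterial counterpart 6 were called higher (median log2 fold change 0.21), and of 20 mitochondria-specific ones 3 (median 0.26). In the small subunit 3 of 16 proteins with a bacterial counterpart (median 0.21) and 1 of 9 mitochondria-specific ones (median 0.18) were called higher. Among finer parts of the large subunit, 2 of 7 genes of the central protuberance were called (median 0.26), 1 of 7 at the peptide exit tunnel (median 0.22) and 1 of 5 at the catalytic centre (median 0.23). For the 4 measured genes of the L7/L12 stalk, where translation factors dock, the median was 0.04, and 0 were called by edgeR's quasi-likelihood test, by the 3 other tools or at an unadjusted p under 0.05. Mrpl12 of that stalk had means of 70.6 ± 6.18 CPM in young, 66.9 ± 8.20 CPM in aged and 66.7 ± 8.29 CPM in NR-treated aged HSC (SD, n = 5). Whether these lists differ from each other was not tested.

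**Figure D5:**
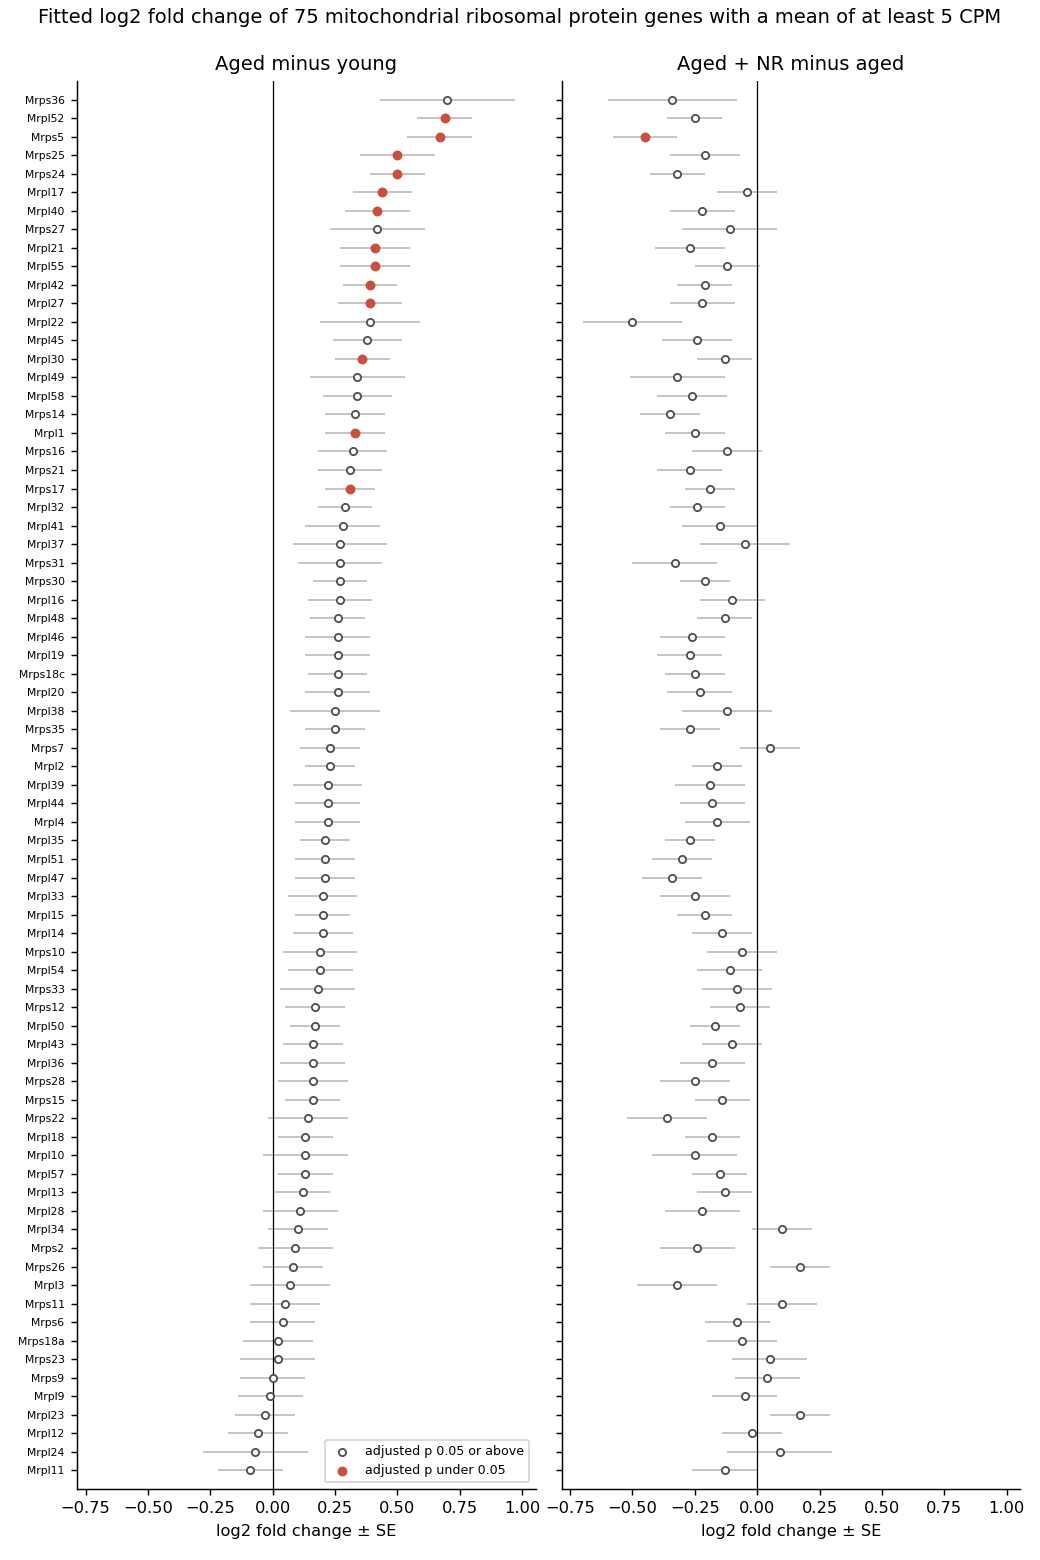
Fitted log2 fold change (x axis, with its SE) of the 75 mitochondrial ribosomal protein genes that averaged at least 5 CPM, for aged minus young (left) and NR-treated aged minus aged (right), with genes (y axis) in the order of the left panel. Filled points have an adjusted p under 0.05, 13 on the left and 1 (Mrps5) on the right. Both panels use the same aged libraries.

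The paralogues Mrps18a and Mrps18c, both related to bacterial S18, sit in the large and the small subunit, respectively. Mrps18a was at 93.6 ± 19.9 CPM in young, 94.9 ± 13.7 CPM in aged and 91.0 ± 10.3 CPM in NR-treated aged HSC, differences smaller than its spread. Mrps18c was at 154.5 ± 20.2, 185.2 ± 10.8 and 155.7 ± 27.9 CPM (SD, n = 5), with aged above young in all libraries but an adjusted p of 0.144. Subunits of the mitochondrial ribosome without an Mrp name are the GTP-binding Dap3, Ptcd3, Chchd1, Aurkaip1 and Gadd45gip1. None of these 5 was called between aged and young by edgeR's quasi-likelihood test or by the 3 other tools, and 1 had an unadjusted p under 0.05. That was Gadd45gip1, at 74.7 ± 11.3 CPM in young, 93.5 ± 10.3 CPM in aged and 90.6 ± 7.48 CPM in NR-treated aged HSC (adjusted p = 0.0625 between aged and young). Dap3 was at 78.3 ± 7.47, 82.7 ± 12.0 and 79.3 ± 3.45 CPM, and Ptcd3 at 27.6 ± 4.53, 25.6 ± 6.25 and 24.6 ± 1.69 CPM. Chchd1 had means of 169.0, 193.7 and 164.3 CPM and Aurkaip1 of 119.8, 141.4 and 130.5 CPM in young, aged and NR-treated aged HSC.

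The comparison of NR-treated aged with untreated aged HSC asks how the genes differ between these groups. Markers of mature blood cells differed too, with 7 of 9 B cell, 7 of 9 granulocyte and 8 of 8 erythroid markers called lower and 0 higher. Their part in the differences of the members was not tested. Mrps5 alone of the 76 members was called, lower in NR-treated HSC, and 0 were called higher. This is 1.32% of the members, against 8.07% of all genes called in either direction, 4.18% lower and 3.88% higher. At an unadjusted p under 0.05, 14 members were lower and 0 higher, compared with 12.4% of all genes lower and 12.6% higher. The log2 fold change was above 0 for 9 members (11.8%), against 51.8% of all genes, and its median was -0.18 over the members and 0.02 over all genes. Most members were therefore slightly lower after NR, by an amount that passed the test in 1 gene. With library totals in place of TMM, 0 members were called, and the medians were -0.04 over the members and 0.16 over all genes. The 5 aged libraries enter this comparison and that with young HSC, so the values of one are not independent of the other.

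Mrps5 fell by 0.45 on the log2 scale (± 0.13 SE, adjusted p = 0.0425), to 84.0 ± 14.8 CPM from 115.9 ± 14.6 CPM (SD, n = 5). The call held in 6 of 15 fits that each left out 1 library, those without young 2, 3 or 4, aged 4 or NR-treated 1 or 5, and the adjusted p reached 0.111. It was lost without young replicates 1 and 5 (adjusted p = 0.0610) and with library totals in place of TMM (adjusted p = 0.138). Mrpl22, at the peptide exit tunnel, had the largest fitted difference, at 17.1, 32.4, 25.4, 21.5 and 22.9 CPM in aged and 16.7, 13.4, 16.7, 15.7 and 19.1 CPM in NR-treated aged HSC. The groups overlapped through aged replicate 1 and NR-treated replicate 5, and the gene was not called (log2 fold change -0.50 ± 0.20 SE, adjusted p = 0.133). Mrps22, a mitochondria-specific protein of the small subunit, was at 37.1, 38.9, 38.2, 31.1 and 39.2 CPM in aged and 34.5, 21.2, 28, 24.8 and 34.3 CPM in NR-treated aged HSC. It was also not called (log2 fold change -0.36 ± 0.16 SE, adjusted p = 0.174). Every NR-treated library was below every aged library for 2 members, Mrpl52 and Mrpl1, compared with 4.95% of all genes, and above every aged library for 0, compared with 3.65%.

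By structure, the median log2 fold change after NR, relative to aged HSC, was -0.18 for large subunit proteins with a bacterial counterpart, -0.18 for mitochondria-specific ones, -0.17 for small subunit proteins with a bacterial counterpart and -0.11 for mitochondria-specific ones. For Mrpl33, among the highest members by CPM, the means were 225.4 ± 28.1 CPM in young, 257.5 ± 47.4 CPM in aged and 217.7 ± 35.2 CPM in NR-treated aged HSC. NR-treated replicate 1, whose summed member level of 7999 CPM was the highest of its group, also had the highest B cell marker sum of the 5 NR-treated libraries (166.4 CPM), while its granulocyte (13 CPM) and erythroid sums (83.0 CPM) lay within the range of the others. Without this library the median over the members was -0.23, and without NR-treated replicate 2 it was -0.14.

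NR-treated aged HSC were finally compared with young HSC, to ask what of the difference with age remained. Mrpl52 alone was called, 1.36-fold higher in NR-treated HSC (log2 fold change 0.44 ± 0.11 SE, adjusted p = 0.0300), with every NR-treated library above every young one. This is 1.32% of the members, against 4.47% of all genes called in either direction, 2.56% higher and 1.91% lower. Complete separation of the libraries was seen in 2.80% of all genes for higher and in 1.94% for lower values. The call was lost without young 3, 4 or 5 or NR-treated 1, 2, 4 or 5 (adjusted p up to 0.0706), and without young replicates 1 and 5 together (adjusted p = 0.0574). At an unadjusted p under 0.05, 4 members were higher and 0 lower, against 18% of all genes in either direction, 8.47% higher and 9.5% lower. The log2 fold change was above 0 for 50 members (65.8%, against 49.4% of all genes), with a median of 0.06 over the members and 0.00 over all genes. Without NR-treated replicate 1 the median over the members was -0.01. Mrpl17 was among the 3 largest changes, at 210.6 ± 22.4 CPM in NR-treated and 160.5 ± 20.8 CPM in young HSC, and was not called by edgeR's quasi-likelihood test (log2 fold change 0.39 ± 0.12 SE, adjusted p = 0.0661). It was called with DESeq2 (adjusted p = 0.0250), with library totals in place of TMM (0.0422), with genes of at least 20 counts on average (0.0429) and without young replicate 1 (0.0388). For Mrps36 the log2 fold change was 0.36 ± 0.28 SE (adjusted p = 0.55).

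Genes that act with the mitochondrial ribosome were counted in the same fit. The share called higher in aged HSC was 6.9% for assembly and rRNA modification and 14.3% for translation factors. It was 5% for aminoacyl-tRNA synthetases and 14.3% for mitochondrial DNA transcription and replication, compared with 9.68% of all genes. After NR, 3.88% of all genes were called higher and 4.18% lower. At an unadjusted p under 0.05 the shares of all genes were 33.2% with age and 25.1% after NR. Of 29 genes for its assembly and the modification of its rRNA, 2 were called higher in aged than in young HSC and 0 lower (median log2 fold change 0.02), with 6 higher and 1 lower at an unadjusted p under 0.05. The 3 other tools each called 1 gene of this list lower. Malsu1, which acts in assembly of the large subunit, rose from 74.2 ± 3.70 to 97.7 ± 9.38 CPM (log2 fold change 0.40 ± 0.11 SE, adjusted p = 0.0148), a call lost without aged 3. Ngrn, required for the large subunit rRNA, rose from 48.3 ± 2.65 to 62.8 ± 4.50 CPM (0.39 ± 0.11 SE, adjusted p = 0.0234), a call lost without young 4 or aged 3. None of the 29 was called after NR, by edgeR's quasi-likelihood test or the 3 other tools, and 3 had an unadjusted p under 0.05 between NR-treated and untreated aged HSC.

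Among 14 mitochondrial translation factors, 2 were called higher in aged HSC and 0 lower, by all 4 tools (median 0.01). Mtif3, initiation factor 3, was at 23.9, 15.7, 20.7, 13.1 and 17.8 CPM in young, 32.9, 66.2, 27.5, 37.5 and 29.5 CPM in aged, and 24.0, 28, 19.1, 22.3 and 15.5 CPM in NR-treated aged HSC. Mrrf, which recycles ribosomes after termination, was at 39.3, 36.6, 37.3, 39.2 and 22.9 CPM in young, 54.5, 62.3, 60.1, 65.1 and 71.3 CPM in aged, and 35.6, 45.3, 38.5, 37.3 and 43.0 CPM in NR-treated aged HSC. For Mrrf the aged libraries were above all others, and for Mtif3 only NR-treated replicate 2 reached the lowest aged library. Between aged and young, Mrrf changed by 0.84 ± 0.14 SE (adjusted p = 0.000456) and Mtif3 by 1.0 ± 0.23 SE (adjusted p = 0.00470) on the log2 scale. After NR, Mrrf fell by 0.65 (± 0.14 SE, adjusted p = 0.0114) and Mtif3 fell by 0.74 (± 0.22 SE, adjusted p = 0.0449), the latter called in 6 of 15 fits with 1 library left out, those without young 1, 2, 3 or 4, aged 1 or NR-treated 2.
Guf1, an elongation factor, was the 1 factor called higher after NR, at 59.4 ± 10.2 CPM against 41.3 ± 6.55 CPM in aged HSC (0.52 ± 0.15 SE, adjusted p = 0.0416), called in 7 of 15 such fits, those without young 1 to 5, aged 4 or NR-treated 1.

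Of 20 mitochondrial aminoacyl-tRNA synthetases, Wars2 alone was called higher in aged HSC, at 27.3 ± 3.30 against 16.9 ± 4.09 CPM (log2 fold change 0.71 ± 0.17 SE, adjusted p = 0.00657), and the median was 0.01. Of 14 genes of mitochondrial DNA transcription and replication, 2 were called higher (median 0.25). Hsd17b10, a subunit of mitochondrial RNase P, rose from 264.6 ± 44.5 to 427.3 ± 80.0 CPM (0.69 ± 0.14 SE, adjusted p = 0.00185). The helicase gene Twnk rose from 62.0 ± 5.83 to 85.5 ± 14.5 CPM (0.45 ± 0.13 SE, adjusted p = 0.0210), a call lost without young 4 or aged 1. None of either list was called after NR against aged HSC by edgeR's quasi-likelihood test, with 3 and 5 at an unadjusted p under 0.05, although the other tools called 1 or 2 genes of the transcription list lower. Hsd17b10 was also called between NR-treated and young HSC (0.50 ± 0.14 SE, adjusted p = 0.0430), in 7 of 15 fits with 1 library left out, those without young 2, aged 1 to 5 or NR-treated 3.

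For the cytosolic ribosome, which translates the imported subunits themselves, 85 genes of the table were taken by symbol. Related genes with similar symbols, such as Rps4l, Rpl6l and Rps3a3, are among them. Of the 85 genes, 33 (38.8%) were called higher and 1 (Rps4l) lower between aged and young HSC (median log2 fold change 0.33). Among all genes 9.68% were called higher and 9.63% lower. Between NR-treated and untreated aged HSC 0 were called by edgeR's quasi-likelihood test, with 33 lower at an unadjusted p under 0.05 and a median of -0.24, while the 3 other tools called between 2 and 7 lower. Of all genes, 12.4% were lower at an unadjusted p under 0.05 in this comparison. The mitochondrial ribosomal protein genes had the same signs of their medians, at 0.22 and -0.18, and no test of a difference between both ribosomes was run.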

How the data were processed

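RNA of HSC from 15 mice was sequenced as 3′ biased poly(A) libraries with a 10 bp unique molecular identifier (UMI). The authors aligned reads to GRCm38 with STAR 2.4.2a, removed reads with duplicated UMIs with Je, counted the rest on exons of GENCODE vM15 with featureCounts, kept genes with more than 5 reads and 2 CPM in at least 2 samples, and deposited raw counts per gene. Each of the 16154 genes passed the stated 2 CPM limit, 0 lacked a name and no column was left out. The strand setting is not given in the sources used here.

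Differential expression was computed from these counts with edgeR 4.0.16 in R 4.3.3 (TMM, all 15 libraries in 1 fit on group alone, quasi-likelihood test, Benjamini-Hochberg adjustment over all genes, adjusted p under 0.05). CPM use TMM sizes. Members were read out of this fit. No libraries of a group were copies (chi-square per degree of freedom 3.00 to 16.7). The labels name 1 mouse per library. A gene with 3 counts or fewer is not told from absence, which is 0.225 CPM in the deepest and 3.93 CPM in the shallowest library, and covers counting error only. The test was also run on simulated data with 200 of 16154 genes changed 2-fold, chosen among genes averaging at least 20 counts. It recovered 72.5% of them for aged against young HSC, with 4.61% false calls. For NR-treated against aged HSC it recovered 71.5%, with 7.74% false calls. Between NR-treated and young HSC, where 0 genes were changed, 2 were called. Changes as small as those of the members were not simulated, so their recovery is not known.

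The members and gene lists were chosen with earlier results of these data known. Named are members called in any comparison, the 3 largest changes in each among members with at least 5 CPM, the 3 highest and 3 lowest by CPM, Mrps18a, Mrps18c, Mrps5, Mrpl12, the subunits without an Mrp name, and up to 4 called genes per other list and comparison. Mrpl50 and the cytosolic ribosomal protein genes were added after values were seen. T cell (4 genes) and monocyte markers (6 genes) were also summed, at 1.10 to 45.4 and 3.29 to 196.2 CPM over all libraries. Mitochondrially encoded genes were not analysed here. Alternatives were the likelihood ratio test, DESeq2 1.42.0, limma-voom 3.58.1, library totals or DESeq2 size factors, a mean of at least 20 counts, the replicate number as a block, only the 2 groups compared, thinned counts, no young replicates 1 and 5, and each library left out. Positions are from GENCODE M21, matched by symbol, and promoters from RefSeq (GRCm38.p6), searched on both strands. Other steps used Python 3.11.15, pandas 2.3.3, NumPy 2.4.6 and matplotlib 3.10.9.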

Additional observations from a re-analysis of the deposited data

Results flagged for a closer look

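Among 81 groups of 5 libraries examined (26 named genes and the summed level, in 3 groups each), 5 had 1 library far from the other 4 by Dixon's ratio of its gap to the group's range, above 0.71. Chance gives about 1 in 20 such groups, so a number of this size is near what chance gives. Mrpl30 was at 197.7 CPM in young replicate 2, against 143.7 to 157.2 CPM in the other young libraries. Mrpl40 was at 133.6 CPM in aged replicate 2, the shallowest library, against 100.2 to 109.8 CPM. Mrpl55 was at 67.8 CPM in young replicate 3, the young library with the most granulocyte markers, against 53.3 to 56.7 CPM. Mrps18c was at 204.2 CPM in aged replicate 3, the deepest library, against 177.9 to 183.6 CPM. Mrps22 was at 31.1 CPM in aged replicate 4, below the 37.1 to 39.2 CPM of the other aged libraries.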

How the results depend on the processing

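Against the 13 members called between aged and young HSC, 3 were called with library totals in place of TMM (median 0.09), 8 with the replicate block, 5 with counts thinned to the smallest total and 6 without young replicates 1 and 5. Leaving out 1 library gave 4 to 17, with 8 without young 1, 6 without young 4, young 5 or aged 5, 4 without aged 3 and 17 without young 2. Between NR-treated and aged HSC, against 1 called, 2 were called with DESeq2 and 0 with library totals (median -0.04), with a mean of at least 20 counts, with thinned counts or without young 1 and 5, and leaving out 1 library gave 0 to 2, with 0 without young 1 or 5, aged 1, 2, 3 or 5 or NR-treated 2, 3 or 4, and 2 without NR-treated 1. Between NR-treated and young HSC, against 1 called, 2 were called with DESeq2, library totals or a mean of at least 20 counts and 0 with the replicate block, with only the 2 groups compared or without young 1 and 5, and leaving out 1 library gave 0 to 2, with 0 without young 3, 4 or 5 or NR-treated 1, 2, 4 or 5 and 2 without young 1. The cause was not tested, though thinned counts and left-out libraries hold less data. The other medians moved by less than the spread between replicates, with 0.18 to 0.27, -0.23 to -0.14 and -0.01 to 0.11 when 1 library was left out. The median between NR-treated and young HSC changed sign without NR-treated 1 (-0.01), and no other result changed its direction. Of the named members' single changes, 365 kept their side of the threshold, 128 lost the call and 7 gained it over the 25 alternatives. Mrpl52 and Mrps24 kept the call between aged and young HSC in all 25, Mrps5 in 24 and Mrpl1 in 4. Replicate numbers did not pair the samples (mean correlation of same-numbered libraries' deviations 0.00211 over 15 pairs), so the block only shows how the counts move. Mrps34 held the fewest counts, between 0 and 15 per library. Of its exon bases, 37.0% are shared with another gene on the same strand and 63.4% on the opposite strand. Whether depth or shared bases limit its counts was not tested. The planned comparison of the share of counts on mitochondrially encoded genes was not run, since 0 of those genes were among the counts analysed here.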
